A study of Mus musculus with 6 samples.

Results

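Interferon regulatory factors (IRFs) are transcription factors that turn on genes of the interferon response and direct the development of blood cells. They bind DNA through a helix-turn-helix domain that reads GAAA repeats. Irf8 and Irf4 encode factors that bind DNA weakly on their own and are recruited with partners of the ETS family (such as PU.1) or the AP-1 family, whereas IRF3 and IRF7 are activated by phosphorylation in antiviral signalling and IRF9 acts downstream of interferon receptors. IRF8 is a lineage factor of monocytes and macrophages, and Irf4 is a known target of IL-4 in macrophages. The loci described here are those of 8 IRF family genes, Irf1, Irf2, Irf3, Irf4, Irf5, Irf7, Irf8 and Irf9. A peak belonged to a gene when the deposited annotation gave that gene as its name, which is the gene of the nearest transcription start site (TSS). By this rule 164 of the 134964 peaks in the 6 deposited lists were at IRF family genes. They merged into 74 of 60847 genomic regions, and 7 of the 8 genes had at least 1 peak.

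The lists came from ChIP-seq (chromatin immunoprecipitation and sequencing) of bone marrow-derived macrophages (BMDMs), primary cells grown in culture, from wild-type C57BL/6 mice aged 8 to 12 weeks. Marrow cells were grown for 6 days in L929 supernatant, a source of macrophage colony-stimulating factor. The cells were either left without IL-4 (control) or exposed to 20 ng/ml of it for 1 h, and the chromatin was crosslinked with DSG and formaldehyde. Antibodies were against C/EBPα, IRF8 or JUNB, the last being a subunit of AP-1, with 1 sample per factor and condition. No value below has a replicate, no difference between control and IL-4 could be tested, and the depth of the samples is unknown, so a difference in depth or library preparation cannot be told apart from an effect of IL-4. Each peak carries a score on what was read as a −log10 p or q scale. It grows with depth and is not a measure of coverage. It serves here to set peaks of a list in order and to give score ratios between the control and IL-4 lists. Such a ratio is not a fold change in binding.

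The control and IL-4 lists of C/EBPα held 24486 and 24612 peaks in all, those of IRF8 37525 and 42076, and those of JUNB 3940 and 2325. All 5 macrophage markers examined (Csf1r, Adgre1, Cd68, Itgam and Mertk) had a C/EBPα and an IRF8 peak in both conditions, and 3 and 1 of them had a JUNB peak in control and after IL-4. Of 4 neutrophil markers, 3 had a C/EBPα peak and 1 an IRF8 peak in each condition. Of 3 T cell markers, 0 or 1 had a peak in any list, and of 3 B cell markers, 1 to 3 did. A peak near a gene is not expression, so these counts describe binding and do not measure the purity of the cells.

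The DNA under the peaks is shown first for the Irf4 and Irf8 loci, because these regions had high scores there or differed between conditions. Coordinates are of the mm10 assembly, and each sequence is the plus strand over 200 bases at the centre of a merged region, read 5′ to 3′ from the RefSeq copy of GRCm38. Capitals mark matches to 5 short motifs on either strand. These were the interferon-stimulated response element (ISRE, GAAA repeated after a gap of 2 bases), the ETS-IRF composite element (GGAA and GAAA with the same gap), AP-1 (TGANTCA), C/EBP (TTGCNNAA) and a STAT6-type site (TTC and GAA with a gap of 4 bases). At Irf4 the windows were 10.7 kb upstream of the TSS (chr13:30738457-30738656), 4.5 kb upstream (chr13:30744652-30744851), at the promoter (chr13:30749212-30749411) and 36.4 kb downstream (chr13:30785551-30785750).
Irf4 −10.7 kb: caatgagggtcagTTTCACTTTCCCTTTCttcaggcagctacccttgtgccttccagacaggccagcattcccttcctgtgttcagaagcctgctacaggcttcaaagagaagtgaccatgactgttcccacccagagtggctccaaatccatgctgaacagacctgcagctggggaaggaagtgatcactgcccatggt
Irf4 −4.5 kb: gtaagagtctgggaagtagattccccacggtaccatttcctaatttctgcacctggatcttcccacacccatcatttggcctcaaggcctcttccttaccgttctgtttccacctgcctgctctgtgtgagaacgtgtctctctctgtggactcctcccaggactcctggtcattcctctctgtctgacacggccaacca
Irf4 promoter: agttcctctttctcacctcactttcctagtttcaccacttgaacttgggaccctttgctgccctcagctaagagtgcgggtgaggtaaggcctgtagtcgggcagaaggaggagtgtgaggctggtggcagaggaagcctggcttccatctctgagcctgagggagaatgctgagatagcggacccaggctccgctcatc
Irf4 +36.4 kb: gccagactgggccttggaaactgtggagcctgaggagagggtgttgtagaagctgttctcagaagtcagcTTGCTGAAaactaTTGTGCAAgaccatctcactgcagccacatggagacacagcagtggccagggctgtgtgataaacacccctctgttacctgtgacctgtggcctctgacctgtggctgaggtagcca

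At Irf8 the windows were 31.9 kb upstream (chr8:120704338-120704537), 16.2 kb upstream (chr8:120720034-120720233), in intron 2 of the gene (chr8:120741060-120741259) and 56.5 kb downstream (chr8:120792744-120792943).
Irf8 −31.9 kb: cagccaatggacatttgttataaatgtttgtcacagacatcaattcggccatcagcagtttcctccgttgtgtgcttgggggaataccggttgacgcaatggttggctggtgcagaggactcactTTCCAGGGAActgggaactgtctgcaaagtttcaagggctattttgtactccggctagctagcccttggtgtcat
Irf8 −16.2 kb: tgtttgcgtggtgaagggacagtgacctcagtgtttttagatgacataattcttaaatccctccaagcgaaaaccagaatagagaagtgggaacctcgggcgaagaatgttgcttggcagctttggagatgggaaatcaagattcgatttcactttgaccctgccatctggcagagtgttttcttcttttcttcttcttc
Irf8 +4.8 kb: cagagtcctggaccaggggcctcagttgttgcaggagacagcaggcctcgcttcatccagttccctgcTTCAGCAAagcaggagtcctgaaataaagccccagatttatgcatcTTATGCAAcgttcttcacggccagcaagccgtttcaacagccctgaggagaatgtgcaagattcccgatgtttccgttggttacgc
Irf8 +56.5 kb: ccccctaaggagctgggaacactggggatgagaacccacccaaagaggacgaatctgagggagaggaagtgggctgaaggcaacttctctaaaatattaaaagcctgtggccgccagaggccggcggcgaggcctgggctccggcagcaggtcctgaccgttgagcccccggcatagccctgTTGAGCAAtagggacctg
The window 10.7 kb upstream of Irf4 held a pair of overlapping ISRE matches, and the windows at +36.4 kb of Irf4 and +4.8 kb of Irf8 each held 2 C/EBP matches. The window 31.9 kb upstream of Irf8 held a STAT6-type match at bases 126 to 135. The window 16.2 kb upstream of Irf8 held none of the 5 motifs, which says only that these letters are not in it.

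IRF8 and C/EBPα peaks were found at all 7 of the bound genes in both conditions, while JUNB peaks were few. IRF8 had 52 peaks at IRF family genes in control and 50 after IL-4, C/EBPα had 27 and 29, and JUNB had 4 and 2. As shares of the whole lists these were 0.139% and 0.119% for IRF8, 0.11% and 0.118% for C/EBPα, and 0.102% and 0.086% for JUNB. The JUNB lists were also the shortest, so its low count is not a trait of these genes alone. Irf2, which encodes a factor mostly known as a repressor of interferon-stimulated genes, held the most, with 21 and 17 IRF8 peaks and 9 and 10 C/EBPα peaks. It lies over 107714 bp of chromosome 8 and had more IRF8 peaks than 99.5% of the genes named in the control list. Irf8 had 9 and 10 IRF8 peaks and 7 and 5 C/EBPα peaks. Irf4 had 9 and 8 IRF8 peaks and 3 and 6 C/EBPα peaks. The median over all named genes was 2 peaks for both factors. Irf1, a broad activator of interferon-stimulated genes, had 4 and 6 IRF8 peaks, and Irf5, which acts downstream of Toll-like receptors, had 5 in each condition. Irf7 had 3 in each condition and Irf9 had 1. Irf3 had no peak in any list, and no peak of any name lay within 10000 bp of it.

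**Figure D1:**
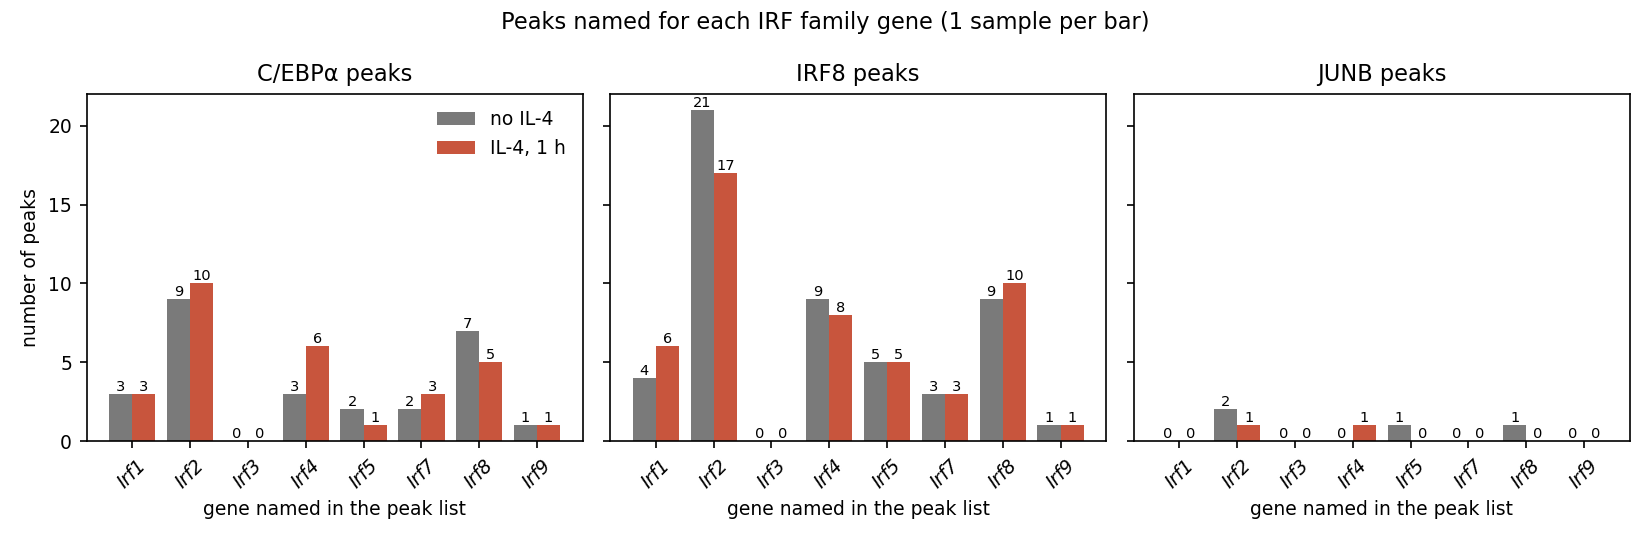
Number of peaks named for each IRF family gene (y axis) in the C/EBPα, IRF8 and JUNB lists, without IL-4 (grey) and after 1 h of IL-4 (red), 1 sample per bar. Irf2 held the most IRF8 peaks (21 and 17), and Irf3 held none.

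Most peaks of C/EBPα and IRF8 at these genes were present in both conditions. Of the control peaks, 21 of 27 for C/EBPα (77.8%, Wilson 95% interval 59.2 to 89.4) and 39 of 52 for IRF8 (75%, 61.8 to 84.8) overlapped an IL-4 peak by at least 1 bp. The share over all peaks was 78.6% for each factor. Intervals cover counting error only. For JUNB, 1 of 4 control peaks was shared (25.0%, 4.56 to 69.9), against 35.8% of all JUNB control peaks.

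Peaks seen in only 1 condition were counted against the whole lists. C/EBPα had 6 control-only peaks at IRF family genes (22.2%), where 21.4% of all control peaks were control-only, and 8 IL-4-only peaks (27.6%), where the background was 22%. IRF8 had 13 control-only peaks (25.0%), against 21.4% of its list, and 11 IL-4-only peaks (22.0%), against 30.4% of its list. JUNB had 3 control-only peaks (75%), against 64.2%, and 1 IL-4-only peak (50%), against 39.2%. The counts behind these shares were small, at most 13 peaks.

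Scores of peaks present in both conditions were paired one-to-one. The median log2 ratio of IL-4 over control was 0.09 for the 21 C/EBPα pairs (SD 1.06 between pairs) and 0.18 for the 39 IRF8 pairs (SD 0.88), and the single JUNB pair stood at −0.28. Over all pairs of each factor the medians were −0.00, 0.08 and −0.54. A ratio of at least 2 in the higher direction was reached by 4 of the 21 C/EBPα pairs at IRF family genes, against 7.72% of all C/EBPα pairs. In the lower direction it was reached by 1, against 6.56% of all C/EBPα pairs. For IRF8, 5 of the 39 pairs were at least 2-fold higher after IL-4, against 11.3% of all IRF8 pairs. A further 3 were at least 2-fold lower, against 7.96% of all IRF8 pairs. The JUNB pair passed neither limit, which 2.99% of all JUNB pairs did in the higher direction and 29.9% in the lower direction. The median score of the peaks at IRF family genes was 8.31 in control and 14.75 after IL-4 for C/EBPα, and 9.64 and 14.49 for IRF8. The whole C/EBPα lists had medians of 11.20 and 11.22, and the whole IRF8 lists had medians of 10.34 and 9.61.

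**Figure D2:**
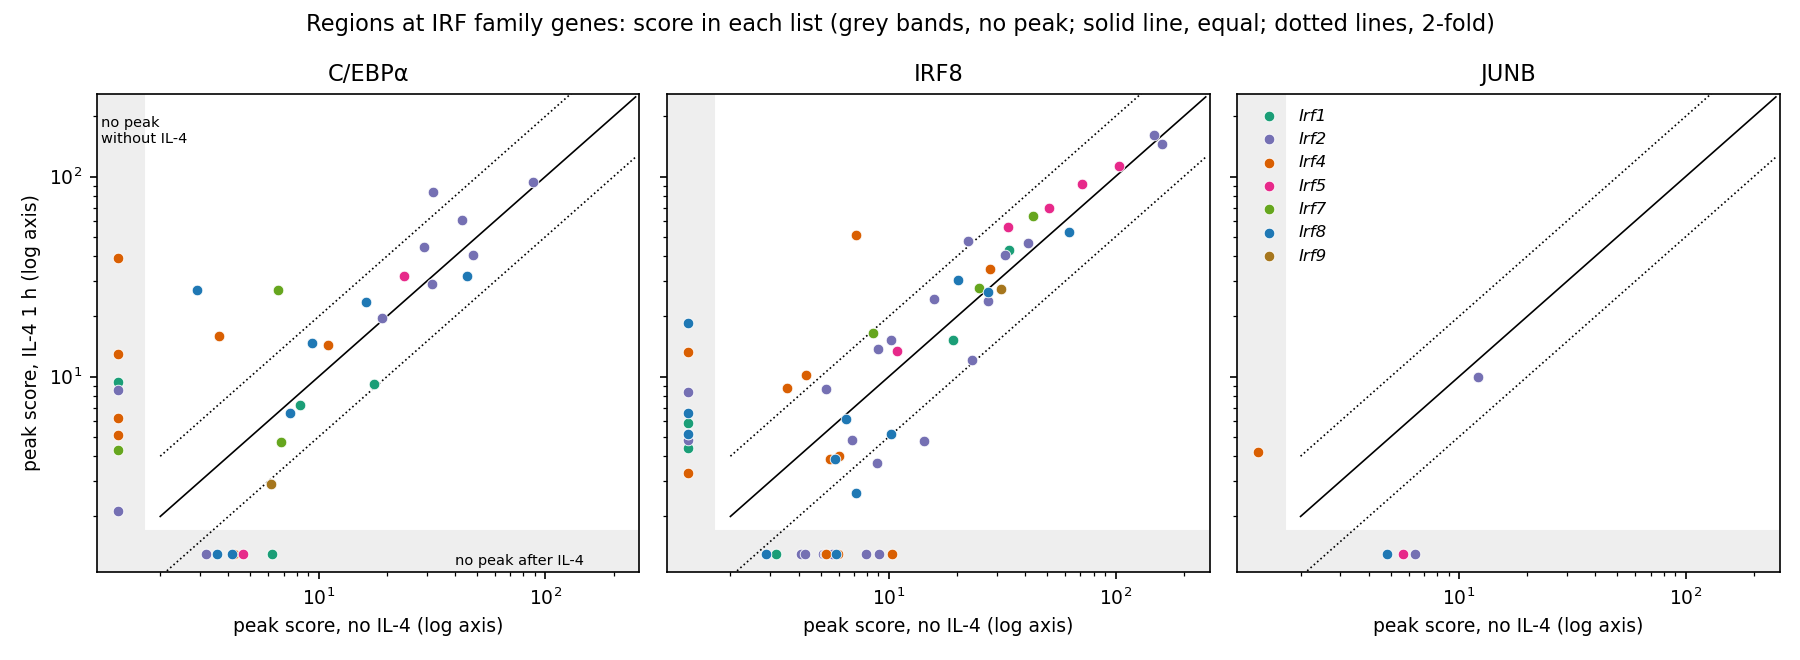
Peak score of each merged region at an IRF family gene without IL-4 (x axis) and after 1 h of IL-4 (y axis), both on log axes, for C/EBPα, IRF8 and JUNB. Each point is a region at its highest score, coloured by gene, grey bands hold regions without a peak in 1 condition, the solid line marks equal scores and the dotted lines a 2-fold ratio. The Irf4 point far above the line in the IRF8 panel went from 7.13 to 50.92.

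IRF8 bound at its own gene in several places, none of them the promoter. No peak of any list overlapped the window from 250 bases before to 50 after either of the 2 Irf8 start sites listed by RefSeq. The strongest IRF8 peak at Irf8 lay 16.2 kb upstream, between genes, and scored 62.57 in control and 52.97 after IL-4, with C/EBPα at 9.36 and 14.75. The next were 27.1 kb downstream of the TSS, with 27.51 and 26.43, and 56.5 kb downstream, with 20.14 and 30.34. Both of these regions also had a C/EBPα peak in each condition, with 7.45 and 6.55 at the former and 16.25 and 23.62 at the latter. These 3 regions thus carried both factors with or without IL-4, and no IRF8 ratio there reached 2.

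The weaker IRF8 peaks at Irf8 went in both directions. At 95.9 kb downstream an IRF8 peak of score 18.43 was present only after IL-4, and 199 of the 12804 IL-4-only IRF8 peaks scored higher. At 31.9 kb upstream IRF8 had no control peak and a score of 6.54 after IL-4. An IRF8 peak over exon 3, at +7.3 kb, was also IL-4-only (5.16). The scores went from 10.23 to 5.17 at +32.4 kb, from 7.18 to 2.61 at −27.0 kb and from 5.81 to 3.87 at +6.4 kb, the last in intron 2. At −10.8 kb they were close to equal, with 6.45 and 6.17. Peaks at +1.2 kb, in intron 1 (5.82), and at −20.9 kb (2.88) were control-only. C/EBPα had weak control-only peaks at −27.0 kb (3.56) and −10.8 kb (4.15), 2 of the regions that IRF8 occupied in both conditions.

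C/EBPα showed its largest score ratio of the family at the region 31.9 kb upstream of Irf8. Its score there was 2.91 in control and 26.98 after IL-4, a log2 ratio of 3.21, and 8 of the 19111 C/EBPα pairs had a higher ratio. The control peak was near the floor, at percentile 1.35 of its list, so the ratio rests on a very weak peak. This region is the window printed above with the STAT6-type match, and the one where IRF8 had its weak IL-4-only peak. The strongest C/EBPα peak at Irf8 was in intron 2, 4.8 kb past the TSS, with scores of 45.10 and 31.95, and it held 2 C/EBP matches and no IRF8 peak. JUNB had a single peak at Irf8, 20.2 kb upstream, with a score of 4.80 in control and none after IL-4. The window there held an AP-1 match.

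Irf4 held the region with the largest IRF8 score ratio of the family. At 34.4 kb upstream the IRF8 score was 7.13 in control and 50.92 after IL-4, a log2 ratio of 2.84, and 45 of the 29110 IRF8 pairs had a higher ratio. C/EBPα had no control peak in this region and a score of 38.99 after IL-4, and 16 of the 5404 IL-4-only C/EBPα peaks scored higher. JUNB had no control peak there and a weak one of score 4.22 after IL-4, which 539 of the 912 IL-4-only JUNB peaks exceeded. This intergenic region thus stood near the top of the paired peaks for IRF8 and, among peaks seen only after IL-4, near the top for C/EBPα and below the middle for JUNB.

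A second upstream region of Irf4, 4.5 kb from the TSS, had a peak of each of IRF8 and C/EBPα only after IL-4. The scores were 13.26 for IRF8, exceeded by 535 of the 12804 IL-4-only IRF8 peaks, and 12.92 for C/EBPα, exceeded by 399 of the 5404. At the promoter, 46 bp past the TSS, the reverse was found, with an IRF8 peak of 10.35 and a C/EBPα peak of 4.22 in control and neither after IL-4. These 2 gained regions were the only ones at IRF family genes that were IL-4-only in 2 or more factors (2.70%, against 1.48% of all regions), and the promoter was the only one control-only in 2 or more (1.35%, against 1.12%).

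The other regions of Irf4 were bound by a single factor. At 10.7 kb upstream, in the window with the overlapping ISRE matches, IRF8 scored 28.04 and 34.57. The IRF8 score went from 4.30 to 10.15 at +37.0 kb and from 3.57 to 8.76 at −43.9 kb, in an intron of the neighbouring gene Dusp22 where the window held an ISRE match. It went from 5.51 to 3.87 at −20.8 kb and from 6.01 to 3.99 at +17.7 kb, at the transcript end. Control-only IRF8 peaks lay at +20.2 kb (5.94) and +34.4 kb (5.27), and an IL-4-only one of 3.29 at +85.3 kb, in an intron of Exoc2. C/EBPα went from 3.63 to 16.00 at +36.4 kb, the window with 2 C/EBP matches, a log2 ratio of 2.14 that 134 of 19111 pairs exceeded. The control peak there was also weak, at percentile 4.32 of its list. C/EBPα went from 10.95 to 14.42 at +70.9 kb, and was IL-4-only at +0.7 kb (6.21) and +26.8 kb (5.08).

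**Figure D3:**
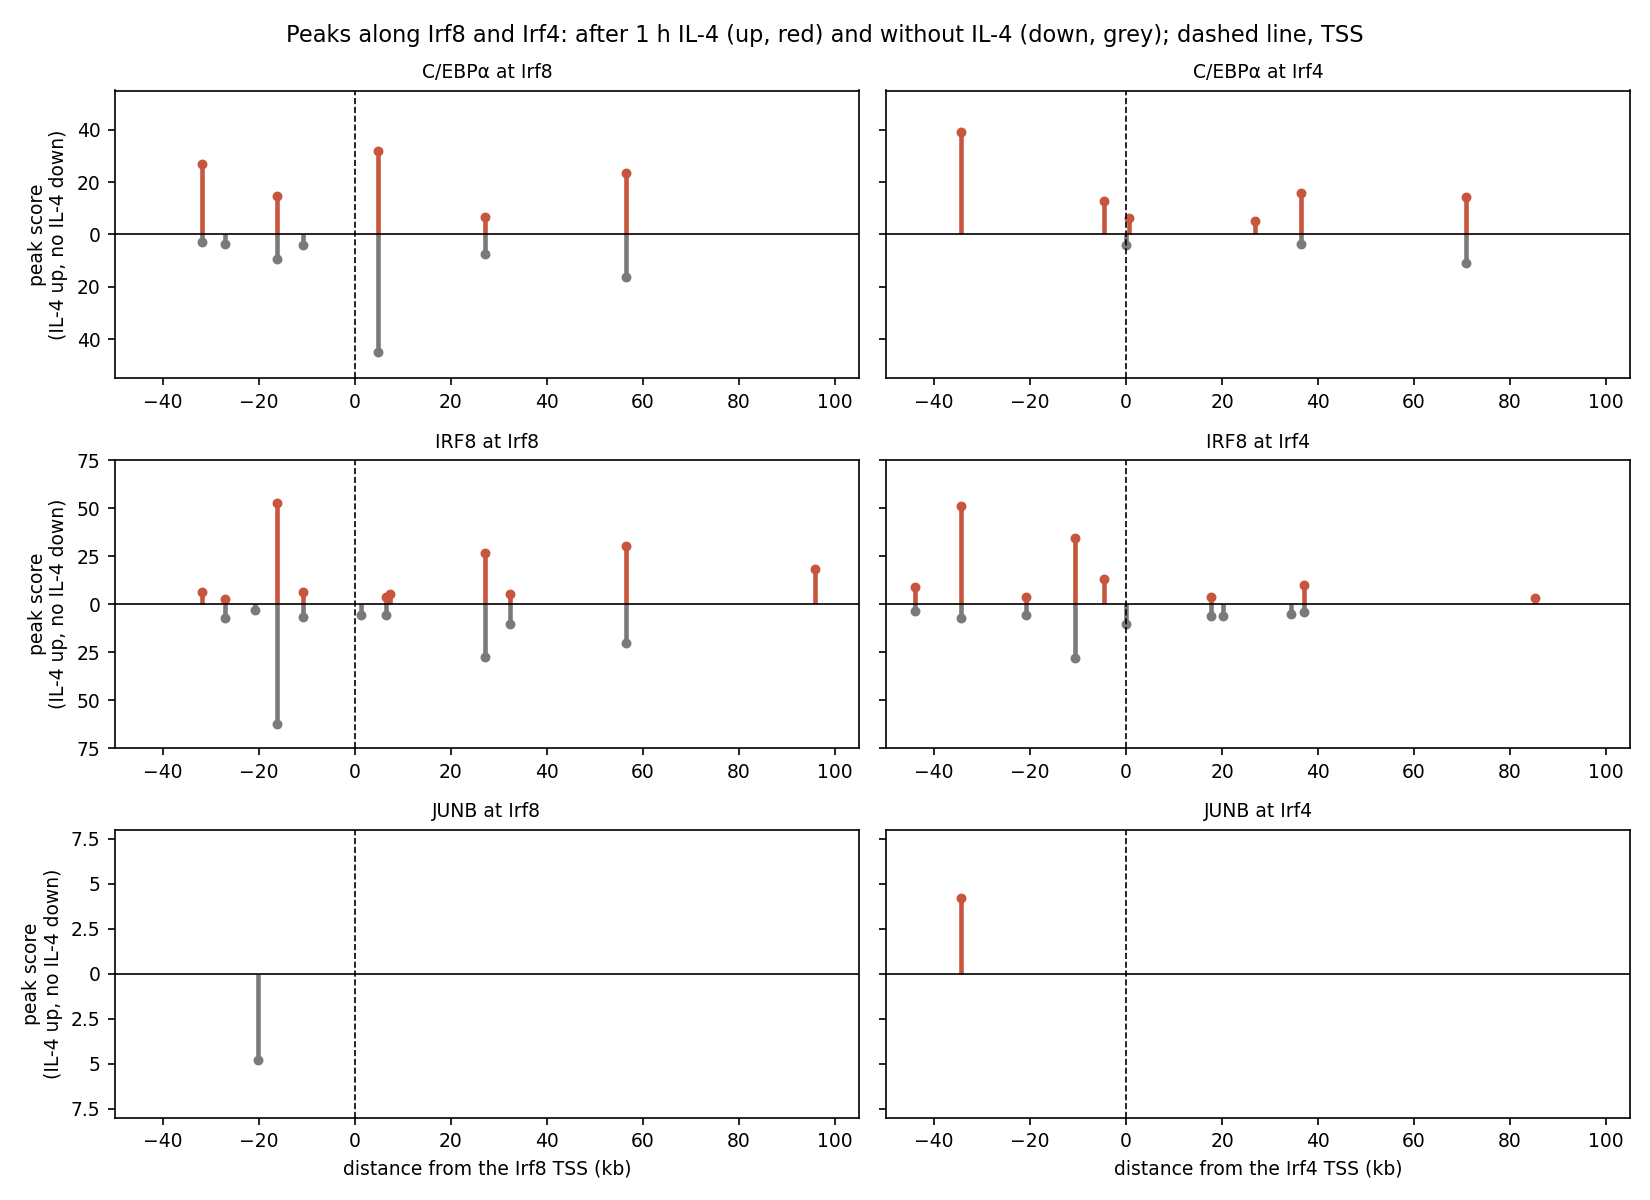
Peak scores (y axis) of C/EBPα, IRF8 and JUNB by distance from the TSS in kb (x axis) at Irf8 (left) and Irf4 (right), after 1 h of IL-4 upwards in red and without IL-4 downwards in grey. The stems 34.4 kb upstream of Irf4 are far longer after IL-4, while the tallest IRF8 stems of Irf8, 16.2 kb upstream, are of similar length in both conditions.

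The strongest IRF8 peaks of the family were at Irf2 and Irf5. The sequences under them are shown with that of the Irf2 promoter, since each held an ETS-IRF composite match. At Irf2 the windows were 38.5 kb (chr8:46778078-46778277) and 49.9 kb (chr8:46789498-46789697) past the TSS, both in intron 1, and the promoter was the RefSeq window (chr8:46739495-46739794, GRCm38.p6). The Irf5 window covered a promoter (chr6:29529168-29529367).
Irf2 +38.5 kb: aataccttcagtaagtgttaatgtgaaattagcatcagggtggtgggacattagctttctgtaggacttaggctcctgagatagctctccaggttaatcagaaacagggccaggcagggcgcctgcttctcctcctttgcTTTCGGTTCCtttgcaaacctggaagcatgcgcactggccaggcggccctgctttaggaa
Irf2 +49.9 kb: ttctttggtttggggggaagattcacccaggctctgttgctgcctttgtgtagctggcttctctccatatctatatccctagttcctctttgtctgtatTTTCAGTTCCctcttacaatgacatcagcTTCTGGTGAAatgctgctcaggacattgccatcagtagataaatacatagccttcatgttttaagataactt
Irf2 promoter: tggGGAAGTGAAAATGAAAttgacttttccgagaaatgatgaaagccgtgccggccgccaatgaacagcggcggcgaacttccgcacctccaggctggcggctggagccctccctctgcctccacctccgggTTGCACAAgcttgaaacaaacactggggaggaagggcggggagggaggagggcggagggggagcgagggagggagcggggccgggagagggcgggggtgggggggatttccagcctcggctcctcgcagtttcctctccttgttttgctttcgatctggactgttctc
Irf5 promoter: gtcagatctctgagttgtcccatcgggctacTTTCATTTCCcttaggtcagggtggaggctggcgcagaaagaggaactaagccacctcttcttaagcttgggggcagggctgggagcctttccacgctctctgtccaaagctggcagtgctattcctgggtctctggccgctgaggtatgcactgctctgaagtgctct

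At Irf2 the IRF8 score was 160.01 in control and 146.19 after IL-4 at +38.5 kb, and 147.56 and 160.59 at +49.9 kb. C/EBPα went from 31.92 to 83.71 in the former region, a log2 ratio of 1.39 that 653 of 19111 pairs exceeded, and from 48.02 to 40.54 in the latter. JUNB had a control-only peak of 6.37 at +49.9 kb. The strongest C/EBPα peak of the family was in intron 5 of Irf2, 71.7 kb past the TSS, with 88.41 and 94.11. IRF8 scored 23.25 and 12.12 there, and JUNB 12.08 and 9.93, the only JUNB peak of the family in both conditions. At +78.6 kb both IRF8 (22.34 and 47.71) and C/EBPα (29.28 and 44.64) scored higher after IL-4. The lowest IRF8 ratio of the family was at +94.8 kb, where the score went from 14.36 to 4.77, a log2 ratio of −1.59. The region nearest the TSS, 154 bp past it, had IRF8 scores of 15.74 and 24.55. No IRF8 or C/EBPα peak of Irf2 that was seen in 1 condition only scored above 9.05.

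Irf5 was bound mainly by IRF8. Its promoter peak scored 103.32 in control and 112.53 after IL-4, and JUNB had a control-only peak of 5.69 there. At 2.3 kb upstream IRF8 scored 71.06 and 91.36 and C/EBPα 23.90 and 31.66. The other IRF8 peaks were over the 3′ UTR (51.11 and 69.70), in an intron of Tnpo3 28.1 kb downstream (33.71 and 55.74), and 9.3 kb upstream (10.89 and 13.45). All 5 IRF8 regions of Irf5 scored higher after IL-4, with none reaching a ratio of 2. Of the 39 IRF8 pairs at IRF family genes, 23 scored higher and 16 lower, and 55.4% of all IRF8 pairs scored higher. The remaining region, at +11.2 kb, had a control-only C/EBPα peak (4.65).

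At Irf7, which encodes the main amplifier of type I interferon, the strongest IRF8 peak was in intron 4, with 43.18 and 63.37, where C/EBPα scored 6.81 and 4.70. In intron 1, close to the TSS, the IRF8 scores were 8.50 and 16.61. A region 2.5 kb upstream had C/EBPα scores of 6.63 and 27.21, a log2 ratio of 2.04 that 176 of 19111 pairs exceeded, with IRF8 at 25.00 and 27.85. At Irf1 the highest IRF8 scores, 33.89 and 42.89, were 6.2 kb upstream. The same merged region held a further IRF8 peak that went from 7.04 to 27.18, a log2 ratio of 1.95, and an IL-4-only C/EBPα peak of 9.42. The strongest C/EBPα peak of Irf1, at +12.9 kb, scored 17.55 and 9.20, with IRF8 at 19.23 and 15.27. At the promoter of Irf1 an IRF8 peak of 4.90 was present only after IL-4. Irf9 had 1 region, at its promoter, with IRF8 at 31.14 and 27.54 and C/EBPα at 6.19 and 2.90.

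The factors met at IRF family genes about as often as elsewhere. Of the 74 regions, 38 had IRF8 alone (51.4%, against 49.7% of all regions), 20 had C/EBPα and IRF8 (27.0%, against 25.1%) and 11 had C/EBPα alone (14.9%, against 17.3%). All 3 factors met in 3 regions (4.05%, against 5.56%), which were those 34.4 kb upstream of Irf4 and 49.9 and 71.7 kb past the TSS of Irf2. Most regions were far from a TSS, with 52 beyond 10000 bp and 8 within 1000 bp. By the deposited annotation 35 of the 74 were intronic (45.2% of all regions were), 28 were intergenic (41.4% of all regions) and 5 were at a promoter. On a repeat lay 10 of the 74, where 22% of all regions did. The distance and promoter counts have no share over all regions beside them. The median GC content was 49% (46% over all regions).

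Promoter windows of RefSeq genes gave a second view that does not rest on the gene name of a peak. IRF8 peaks overlapped that of Irf2, Irf4 and Irf9 in control and that of Irf1, Irf2, Irf7 and Irf9 after IL-4, where 8.08% and 12.6% of 27025 genes had such a peak. The IRF8 peak in intron 1 of Irf7 was present in both conditions (8.50 and 16.61), but only the wider IL-4 peak reached the window. C/EBPα peaks overlapped Irf2 and Irf4 in control and Irf2 and Irf9 after IL-4 (4.60% and 4.91% of genes). At Irf9 the C/EBPα peak was shared between conditions, with 6.19 in control and 2.90 after IL-4. Only the IL-4 peak reached a window, so that difference rests on the window edge. No member had a JUNB peak at its promoter window (0.311% and 0.196% of genes). The Irf5 window listed by RefSeq is at another start site than the promoter peak described above.

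The motifs were found at IRF family genes at shares close to those of all regions. ETS-IRF composite matches were in 10 of 74 windows (13.5%, against 10.8% of all regions) and ISRE matches in 4 (5.41%, against 7.60%). C/EBP matches were in 14 (18.9%, against 18.4%), AP-1 matches in 7 (9.46%, against 14.2%) and STAT6-type matches in 4 (5.41%, against 7.63%). Each background share lay within the interval of the members' share. The members' shares rest on the window, since over whole regions those of the ISRE and the STAT6-type site were 12.2% and 13.5%. Among the 11 promoter windows that RefSeq lists for the 8 genes, that of Irf2 alone held an ISRE match, an ETS-IRF composite match and a C/EBP match, the first pair overlapping by 4 bases. Those motifs are in 3.44%, 2.72% and 10.8% of 32851 promoters.

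**Figure D4:**
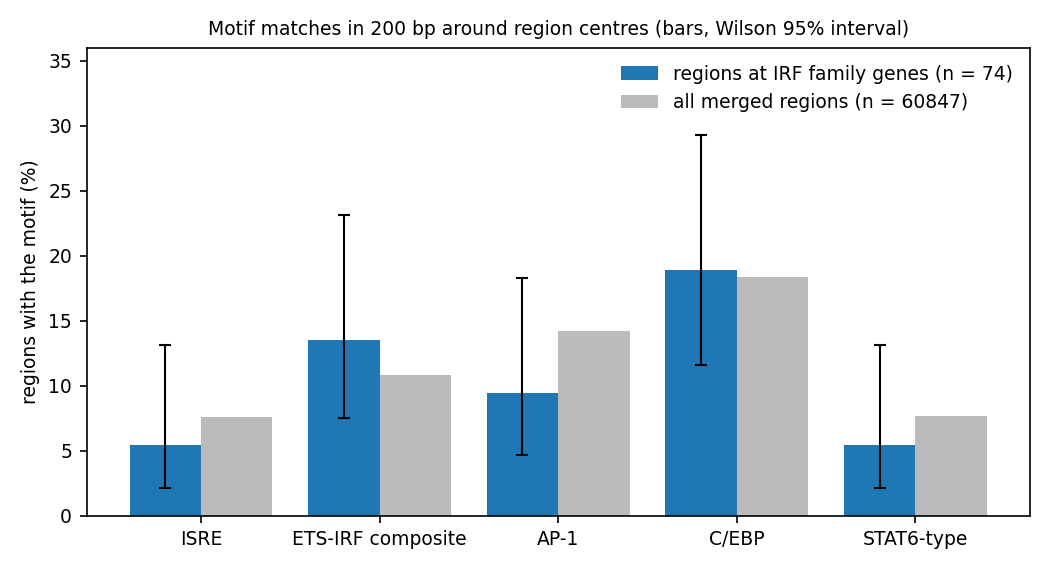
Share of merged regions (y axis, percent) with each motif in the 200 bases at their centre, for the 74 regions at IRF family genes (blue, with Wilson 95% interval) and for all 60847 regions (grey). The ETS-IRF composite bar is 13.5% against 10.8%, and the intervals of all 5 motifs include the grey bars.

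Genes of IRF signalling and IRF partners were counted in the same way, from a list of 24 genes that includes receptors, kinases, adaptors and DNA-binding partners. C/EBPα peaks were at 19 of 24 genes in each condition and numbered 81 in control and 86 after IL-4. IRF8 peaks were at 21 genes in each condition and numbered 118 and 138. JUNB peaks were at 9 and 7 genes and numbered 15 and 9. IRF8 had more peaks after IL-4 at 12 genes, fewer at 3 and as many at 9, and 43 of its 138 IL-4 peaks (31.2%) were IL-4-only, near the background of 30.4%. C/EBPα had more at 6, fewer at 6 and as many at 12, and JUNB had more at 2, fewer at 5 and as many at 17. These gene counts have no share over all named genes beside them. The whole IRF8 list grew from 37525 to 42076 peaks, and that of JUNB fell from 3940 to 2325.

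Ifngr1, the ligand-binding chain of the interferon-γ receptor, had the most C/EBPα peaks (10 and 12), and IRF8 had 12 and 15 there. Ikbke, a kinase that phosphorylates IRF3 and IRF7, had 12 IRF8 peaks in control, as many as Ifngr1. Irf2bp2, a corepressor of IRF2, had 3 JUNB peaks in each condition. Of these, 2 were control-only and 2 IL-4-only. Ikbke also had 3 JUNB peaks in control, and 1 after IL-4. Of the 180 merged regions at these genes, 6 were IL-4-only in at least 2 factors (3.33%, against 1.48% of all regions, a difference that was not tested). They occurred at Ifngr1, 37945 bp upstream, with 11.03 for C/EBPα and 10.76 for IRF8, and at Ikbke, with 5.74 and 7.04. Ikzf1, a zinc finger factor of lymphoid and myeloid development, had 2 such regions. Its intron 1 had 9.17 for C/EBPα and 7.36 for IRF8, and its intron 3 had 4.69 for IRF8 and 8.56 for JUNB. Irf2bp2 had 1, with 3.97 for IRF8 and 4.22 for JUNB, and Irf2bpl had 1, with 3.66 for C/EBPα and 2.28 for JUNB. For C/EBPα and IRF8, these regions all scored below the 38.99 and 50.92 seen 34.4 kb upstream of Irf4. That Irf4 region was described above for its high values, and IRF8 also had a control peak there (7.13). For JUNB, the 8.56 at Ikzf1 was above the 4.22 seen at that Irf4 region, the score at Irf2bp2 equalled it and that at Irf2bpl was lower.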

How the data were processed

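The files analysed were 6 annotated ChIP-seq peak lists, 1 per factor and condition. Per the study's methods and the submitters' processing notes, the authors aligned reads with BWA 0.7.10 to mm10, used SAMtools 0.1.19, called peaks per sample with MACS2 2.0.10 at a q-value limit of 0.01, removed blacklisted regions and annotated peaks with HOMER 4.2. Either of 2 library kits was used, and which one served which sample is not given in the sources used here. The peak score carries no unit in the files. The scores the authors deposited were read as −log10 p or q values from their MACS2 calls, because the lowest of them, 1.30, is −log10 of 0.05. That is looser than the stated limit of 0.01, and between 1 and 48 peaks of each list scored below the 2 that this limit gives on a q scale, so the scale is an inference. Read depth is unknown.

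Control and IL-4 peaks with 1 bp or more in common were called shared, paired one-to-one by largest overlap, and merged over the 6 lists where they touched. Motifs were searched in 200 bp. The sequence of 1 region is not reported here. Shares carry Wilson 95% intervals. No peak ended past a chromosome of GRCm38 (0 peaks), and coordinates may be off by 1 bp. Members and gene lists were chosen with earlier results of these data known. Regions given in full were, for each member, the highest of each factor, the nearest to the TSS and those gained or lost by 2 or more factors, and for Irf8 and Irf4 all with an IRF8 peak. Other regions named were chosen after their values were seen. Pathway genes were named for the most peaks of a factor or a region gained by 2 or more factors. Alternatives changed the overlap, score threshold, list length, peak width, score scaling, naming and motif window. Scripts (Python 3.11.15 with matplotlib 3.10.9, scipy 1.17.1, pandas 2.3.3 and numpy 2.4.6) were tested on simulated data, where 13 of 13 checks passed.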

Additional observations from a re-analysis of the deposited data

Results flagged for a closer look

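The change in the number of peaks at IRF family genes differed in direction between factors, with C/EBPα higher by 2 after IL-4 (27 and 29 peaks) and IRF8 (52 and 50) and JUNB (4 and 2) each lower, by −2. Among peaks scoring at least 10, a count made after the data were seen, IRF8 was higher after IL-4 as well, with 26 in control and 30 after IL-4, beside C/EBPα with 12 and 17 and JUNB with 1 and 0. The whole IRF8 list went from 37525 to 42076 peaks, that of C/EBPα from 24486 to 24612 and that of JUNB from 3940 to 2325. The difference was not tested, and each factor had 1 sample per condition.

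The peaks with the strongest signal at the Irf2 promoter lie outside the counts above, because the deposited lists name them for Gm16675, a divergent transcript, although the annotation column places them at the start of an Irf2 transcript. Their C/EBPα scores were 40.72 in control and 47.32 after IL-4, and their IRF8 scores were 119.59 and 173.73. The last is above the highest IRF8 score at a peak named for an IRF family gene, 160.59 at Irf2. They end within 59 bp of the Irf2 gene.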

How the results depend on the processing

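Of 64 alternative values, 41 moved by less than their limits, 21 moved further and 2 changed sign. Requiring 50% overlap of both peaks raised the C/EBPα control-only count to 10. With scores of at least 10, the C/EBPα shared share was 91.7% with 1 control-only peak. IRF8 had 88.5% shared, 3 control-only and 7 IL-4-only peaks, JUNB had 0% shared, 1 control-only and 0 IL-4-only peaks, and 1 region carried all 3 factors. There the change in peak number after IL-4 was 5 for C/EBPα, 4 for IRF8 (−2 over all scores, a change of sign) and −1 for JUNB, an alternative chosen after seeing the data. With names from the nearest TSS of the reference annotation, the C/EBPα share was 90.9%, with 1 control-only and 4 IL-4-only peaks, IRF8 had 5 and 3, and JUNB had 0 IL-4-only. That naming kept 11 of 27 and 14 of 29 C/EBPα, 22 of 52 and 20 of 50 IRF8, and 3 of 4 and 1 of 2 JUNB peaks, so fewer peaks entered. With equal list lengths a single JUNB control peak remained at these genes, so JUNB was 100% shared with 0 control-only peaks. Dividing scores by the list median turned the JUNB median log2 ratio, of 1 pair, to 0.06. Over whole regions, where more bases were searched, the STAT6-type share was 13.5% and the ISRE share 12.2%, with no background over all regions. For the other changes the cause was not tested. No paired analysis was possible because each factor and condition had 1 sample. Unknown depth limits every statement on a missing peak.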
